A study of Rattus norvegicus with 10 samples.

Results

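The genes described here encode 6 inward rectifier potassium channel subunits (Kcnj2, Kcnj12, Kcnj3, Kcnj5, Kcnj8 and Kcnj11) and the 2 sulfonylurea receptors (Abcc8 and Abcc9). They were measured in cultured rat heart muscle cells that were electrically paced, paced while contraction was blocked, or left unpaced. Every probe set annotated to 1 of these 8 genes was taken, which gave 15 of the 31099 probe sets on the array. Kcnj3, Kcnj11 and Abcc9 had 3 probe sets each, Kcnj5 had 2, and Kcnj2, Kcnj12, Kcnj8 and Abcc8 had 1 each.

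Primary cultures of ventricular heart muscle cells were prepared from Lewis rats aged 0 to 3 days and kept for 3 days after a recovery phase. The pulsed cultures with blebbistatin (3 arrays) received electric pulses at 1 Hz and 2 V/cm together with 10 µmol/L blebbistatin, a myosin II inhibitor that stops contraction. The pulsed cultures (4 arrays) received the same pulses alone, and the nonpulsed cultures (3 arrays), which the labels call untreated, received neither. There was no array of nonpulsed cultures with blebbistatin, so the drug was compared only among pulsed cells. The arrays came from 4 series of cell isolation and culture, numbered 1 to 4 here. Blebbistatin was represented in series 2, 3 and 4, pulsing alone in each of the 4, and nonpulsed cells in series 1, 2 and 3. Equal parts of RNA from duplicate experiments were pooled for an array, so that arrays of a group differ as culture series do.

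Inward rectifiers pass potassium into the cell more easily than out of it, because magnesium and polyamines inside the cell plug the pore when the membrane is depolarised. In the heart they fall into 3 kinds. Strong rectifiers (Kir2, encoded by Kcnj2 and Kcnj12) hold the resting potential of ventricular cells. G protein gated channels (Kir3.1 and Kir3.4, encoded by Kcnj3 and Kcnj5) open when acetylcholine or adenosine acts on the atria and the sinus node. ATP-sensitive (KATP) channels open when cellular ATP falls. They join pores of Kir6.1 (Kcnj8) or Kir6.2 (Kcnj11) with sulfonylurea receptors, SUR1 (Abcc8) or SUR2 (Abcc9), which sense nucleotides. The classic ventricular form is Kir6.2 with SUR2A, the vascular form Kir6.1 with SUR2B, and the form in pancreatic beta cells Kir6.2 with SUR1.

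The KATP genes lie in pairs in the rat genome. In assembly GRCr8 the gene table listed 0 protein-coding genes between Kcnj8 and Abcc9 on chromosome 4 and 0 between Kcnj11 and Abcc8 on chromosome 1. Kcnj2 and Kcnj12 share chromosome 10 but had 945 protein-coding genes between them. Promoter sequence from RefSeq (GRCr8) was at hand for 4 of the 8 genes, Kcnj2, Kcnj5, Kcnj8 and Abcc9. The 250 bases before the start are shown for the neighbours Abcc9 and Kcnj8, of which Abcc9 passed and Kcnj8 did not pass the filter on dim probe sets described next, and for Kcnj5, the G protein gated subunit with the larger differences. Capitals mark the GC box, GGGCGG or its reverse complement CCGCCC.
Abcc9, chr4:177386349-177386598, minus strand: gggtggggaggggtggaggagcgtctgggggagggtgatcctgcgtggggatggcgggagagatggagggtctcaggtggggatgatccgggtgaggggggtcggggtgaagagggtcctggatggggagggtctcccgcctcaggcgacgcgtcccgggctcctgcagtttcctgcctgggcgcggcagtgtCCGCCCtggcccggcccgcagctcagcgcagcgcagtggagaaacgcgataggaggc
Kcnj8, chr4:177246549-177246798, minus strand: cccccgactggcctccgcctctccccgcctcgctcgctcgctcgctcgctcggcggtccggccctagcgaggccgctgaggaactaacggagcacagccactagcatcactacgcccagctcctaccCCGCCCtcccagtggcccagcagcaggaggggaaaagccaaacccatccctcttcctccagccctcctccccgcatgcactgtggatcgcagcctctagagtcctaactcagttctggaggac
Kcnj5, chr8:39011097-39011346, minus strand: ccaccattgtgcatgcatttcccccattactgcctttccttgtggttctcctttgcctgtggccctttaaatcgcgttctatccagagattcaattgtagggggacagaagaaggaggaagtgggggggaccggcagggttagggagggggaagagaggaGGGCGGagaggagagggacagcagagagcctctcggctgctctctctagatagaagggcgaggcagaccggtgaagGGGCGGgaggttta

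The Abcc9 stretch was 71.2% G and C, that of Kcnj8 66.8%, that of Kcnj2 66.0% and that of Kcnj5 57.2%, against a median of 51.2% over all 33469 promoters. Motifs were searched on both strands. Abcc9 and Kcnj8 each held 1 GC box, Kcnj5 held 2, and Kcnj2 held 1 and also 1 CCAAT box. A GC box was present in 30.5% and CCAAT in 34% of all promoters. TATAAA (12.9% of promoters), the E box CACGTG (5.59%), the hypoxia response core ACGTG (16.6%, which overlaps the E box), the forkhead letters TGTTTAC (3.21%) and the GATA letters AGATAA (10.3%) were in none of the 4. These matches describe letters and are not binding sites.

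Values are log2 expression values as deposited. They are compared between arrays within a probe set, and levels are not compared between probe sets. Changes are limma estimates with culture series as a block, given with their standard error (SE), and p-values were adjusted over all 23281 probe sets tested. The dimmest 25% of probe sets, with a mean over the arrays below 5.09, were not part of that test. Of the 15 probe sets 12 passed this filter, from 5 of the 8 genes. The single probe sets of Kcnj2 (mean log2 value 4.65), Kcnj12 (4.99) and Kcnj8 (4.91) did not pass, and their changes come from the fit without the filter. Median log2 values of the arrays lay between 6.57 and 6.78, and the number of arrays limits the precision.

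The labelled cell type was checked with markers. All 10 ventricular cardiomyocyte markers, among them Myh6, Myl2 and Tnnt2, lay at or above the 98th percentile of all probe sets. Their mean log2 value ranged from 12.87 to 13.01 in pulsed cultures with blebbistatin, from 12.79 to 13.03 in pulsed cultures and from 12.21 to 12.81 in nonpulsed cultures. The nonpulsed array of series 1 had the lowest mean of the 10. Pulsed arrays exceeded their nonpulsed partners by 0.78 (series 1), 0.22 (series 2) and 0.045 (series 3). Smooth muscle and pericyte markers, 11 of 12 of them above the filter, averaged 7.68 to 8.32 in pulsed cultures with blebbistatin, 8.51 to 8.68 in pulsed cultures and 8.38 to 9.04 in nonpulsed cultures. Fibroblast markers (11 of 11 above the filter) averaged 10.02 to 11.58 in pulsed cultures with blebbistatin, 10.41 to 11.81 in pulsed cultures and 10.44 to 11.81 in nonpulsed cultures. Endothelial markers (7 of 9 on the array above the filter) averaged 5.81 to 6.22 in pulsed cultures with blebbistatin, 5.87 to 6.59 in pulsed cultures and 5.78 to 6.29 in nonpulsed cultures. Macrophage markers (8 of 10) averaged 6.13 to 6.90, 6.27 to 7.65 and 6.22 to 7.68 in these groups. Within series 2, 3 and 4, pulsed cultures with blebbistatin differed from pulsed cultures by -0.39, -0.30 and -0.23 in fibroblast markers and by -0.43, -0.14 and -0.66 in macrophage markers. The part of other cells in the values below was not tested. In such bulk samples fewer cells of a type and less RNA per cell cannot be told apart.

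No probe set of these genes passed the adjusted limma test in any comparison. In pulsed against nonpulsed cultures the count was 0 of 12, where 0% of all probe sets tested passed. In pulsed cultures with blebbistatin it was 0 of 12 against pulsed cultures, where 0.0129% of all passed, and 0 of 12 against nonpulsed cultures, where 0.472% passed. At an unadjusted p below 0.05, 8 of the 12 were higher and 0 lower in pulsed than in nonpulsed cultures, where 7.71% of all probe sets tested were higher and 1.36% lower. With blebbistatin, 1 of the 12 was higher and 0 lower than in pulsed cultures, where 6.09% of all were higher and 5.51% lower. Against nonpulsed cultures 10 of the 12 were higher and 0 lower, where 15.5% of all were higher and 6.89% lower. In the fit without the filter, 0 of all 15 probe sets passed the adjusted test in each comparison (0%, 0% and 0.00322% of 31042), and 8, 1 and 12 of the 15 were higher at an unadjusted p below 0.05 (6.72%, 5.67% and 13.3%). The 12 tested probe sets come from 5 genes and all 15 from 8, and those annotated to 1 gene are not independent of each other. The 3 comparisons share arrays, so their values are given side by side and are not independent.

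**Figure D1:**
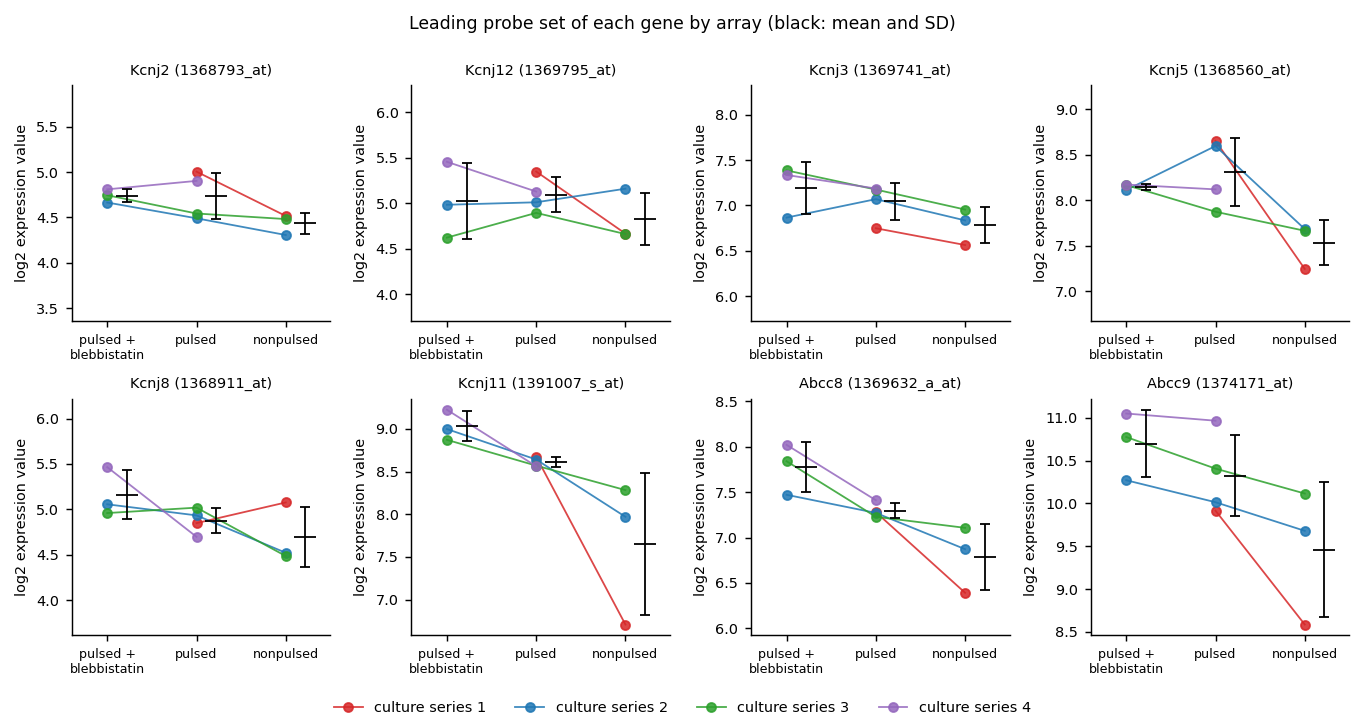
Log2 expression value (y axis) of the probe set with the highest mean of each of the 8 genes, in pulsed cultures with blebbistatin, pulsed cultures and nonpulsed cultures (x axis). Points are arrays, lines join arrays of 1 culture series, and black marks show the group mean and SD. Kcnj3, Kcnj5, Kcnj11, Abcc8 and Abcc9 are lowest in the nonpulsed array of series 1. Kcnj2, Kcnj12 and Kcnj8 read between 4.31 and 5.47 on every array.

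Among the KATP pore subunits, Kcnj11 (Kir6.2) had the largest changes from nonpulsed cultures of the 8 genes. Its brightest probe set, 1391007_s_at, read 8.998, 8.87 and 9.22 in pulsed cultures with blebbistatin (series 2, 3 and 4). It read 8.68, 8.64, 8.57 and 8.56 in pulsed cultures (series 1 to 4) and 6.71, 7.97 and 8.28 in nonpulsed cultures (series 1 to 3). The 3 groups did not overlap: every array with blebbistatin lay above every pulsed array, and every pulsed array above every nonpulsed one. The mean was 9.03 ± 0.18 (SD, n = 3) in pulsed cultures with blebbistatin, 8.61 ± 0.06 (SD, n = 4) in pulsed cultures, whose arrays lay close together, and 7.65 ± 0.83 (SD, n = 3) in nonpulsed cultures, whose arrays spread widely. Every pulsed array lay above every nonpulsed array for 4 of the 12 probe sets tested (6.17% of all), and every array with blebbistatin above every pulsed array for 2 of them, this one and that of Abcc8 (6.18% of all).

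The change of this Kcnj11 probe set in pulsed against nonpulsed cultures was 0.91 (SE 0.29, 95% interval 0.23 to 1.58, adjusted p = 0.485), a 1.88-fold difference. The pulsed array exceeded its nonpulsed partner by 1.97 (series 1), 0.67 (series 2) and 0.29 (series 3). Without series 1 the change was 0.42 (SE 0.15, adjusted p = 1.0). Blebbistatin against pulsed cultures gave 0.26 (SE 0.29, adjusted p = 0.763), with differences of 0.36, 0.30 and 0.66 within series 2, 3 and 4. Against nonpulsed cultures the change was 1.17 (SE 0.33, 95% interval 0.41 to 1.94, adjusted p = 0.113), or 2.25-fold. That fold was the largest among the 15 probe sets. With culture series as a random block, this last change was 1.27 and passed (adjusted p = 0.0401). The share of all probe sets that passed in that setting was not computed.

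The other Kcnj11 probe sets ran in the same direction with smaller differences. The probe set 1387698_at read 8.04, 8.29 and 8.68 in pulsed cultures with blebbistatin, 8.22, 7.99, 7.61 and 8.12 in pulsed cultures, and 6.70, 7.46 and 7.61 in nonpulsed cultures. Here the pulsed array of series 3 equalled its nonpulsed partner (difference 0.0025), and the groups with and without blebbistatin overlapped. Its change was 0.64 (SE 0.26, adjusted p = 0.527) in pulsed against nonpulsed cultures and 0.92 (SE 0.29, adjusted p = 0.136) with blebbistatin against nonpulsed cultures. With culture series as a random block the change with blebbistatin against nonpulsed cultures was 0.999 and passed (adjusted p = 0.047). The share of all probe sets passing there was not computed. The third, 1369782_a_at, ranged from 7.19 to 7.45 with blebbistatin, from 6.87 to 7.39 in pulsed cultures and from 6.47 to 6.90 in nonpulsed cultures, and its pulsed against nonpulsed change was 0.33 (SE 0.17, adjusted p = 0.594). Leaving out 1 array at a time, the pulsed against nonpulsed change ran from 0.24 to 0.88 for 1387698_at and from 0.061 to 0.48 for 1369782_a_at, with both lowest values without either array of series 1. Over the 10 arrays the 3 Kcnj11 probe sets correlated with each other at r = 0.894 to 0.947.

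Kcnj8 encodes Kir6.1, the KATP pore of vascular smooth muscle and pericytes. Its probe set read 5.06, 4.96 and 5.47 in pulsed cultures with blebbistatin, 4.85, 4.93, 5.02 and 4.70 in pulsed cultures, and 5.08, 4.52 and 4.49 in nonpulsed cultures. The arrays of the 3 groups overlapped, and the nonpulsed array of series 1 was among the higher ones. In the fit without the filter the change was 0.17 (SE 0.19, adjusted p = 0.835) in pulsed against nonpulsed cultures, 0.34 (SE 0.19, adjusted p = 0.567; 0.15 without either array of series 4) with blebbistatin against pulsed cultures, and 0.51 (SE 0.21, adjusted p = 0.254) with blebbistatin against nonpulsed cultures. Smooth muscle and pericyte markers, which exclude Kcnj8 and Abcc9, differed by -0.36, -0.78 and -0.99 between pulsed cultures with blebbistatin and pulsed cultures within series 2, 3 and 4, while Kcnj8 differed by 0.12, -0.06 and 0.77. Their part in the Kcnj8 values was not tested.

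Of the sulfonylurea receptors, Abcc8 (SUR1) had the most even differences across the groups. It read 7.47, 7.84 and 8.02 in pulsed cultures with blebbistatin, 7.28, 7.27, 7.23 and 7.41 in pulsed cultures, and 6.39, 6.87 and 7.11 in nonpulsed cultures. As for Kcnj11, the 3 groups did not overlap, and the pulsed arrays differed little among themselves. The mean was 7.78 ± 0.28 (SD, n = 3) in pulsed cultures with blebbistatin, 7.30 ± 0.08 (SD, n = 4) in pulsed cultures and 6.79 ± 0.36 (SD, n = 3) in nonpulsed cultures.

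Abcc8 had a change of 0.43 (SE 0.16, 95% interval 0.07 to 0.80, adjusted p = 0.494) in pulsed against nonpulsed cultures, with differences of 0.89, 0.40 and 0.12 in series 1, 2 and 3. With blebbistatin against pulsed cultures the change was 0.40 (SE 0.16, 95% interval 0.03 to 0.76, adjusted p = 0.401). The differences were 0.20, 0.61 and 0.61 in series 2, 3 and 4, and this was the only probe set of the 12 with an unadjusted p below 0.05 in that comparison. Against nonpulsed cultures blebbistatin gave 0.83 (SE 0.18, 95% interval 0.42 to 1.24, adjusted p = 0.0811), a 1.78-fold difference and the smallest adjusted p among these genes. With a random block, where the share of all probe sets passing was not computed, it was 0.91 (adjusted p = 0.0243). Without series 1 the change in pulsed against nonpulsed cultures was 0.23 (SE 0.13), and the change with blebbistatin against pulsed cultures was 0.47 (SE 0.12, adjusted p = 0.165). Abcc8 is known for beta cells and neurons. Of the 10 neural and neuroendocrine markers on the array 5 passed the filter. Chga lay at the lowest level on all 10 arrays and Snap25 on 8. Ins1, Syp, Dbh and S100b lay there on 0 arrays and had mean values at percentiles 56.1, 53.7, 62.7 and 68.6 of all probe sets. Th lay at percentile 31.5, and Ins2 (15), Chgb (10.3) and Sox10 (8.3) did not pass the filter. The list averaged 5.24 to 5.46 with blebbistatin, 5.28 to 5.45 in pulsed cultures and 5.34 to 5.36 in nonpulsed cultures, and the part of such cells in the Abcc8 values was not tested.

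Abcc9 encodes SUR2, the receptor of ventricular and vascular KATP channels. Its brightest probe set, 1374171_at, read 10.27, 10.78 and 11.05 in pulsed cultures with blebbistatin, 9.92, 10.01, 10.41 and 10.97 in pulsed cultures, and 8.59, 9.68 and 10.12 in nonpulsed cultures. Levels differed between culture series within every group, and the array of series 1 or 2 was the lowest of its group. Pulsed and nonpulsed arrays overlapped, although the pulsed array was higher in each of the 3 shared series, by 1.33, 0.33 and 0.29. The change was 0.66 (SE 0.19, 95% interval 0.21 to 1.104, adjusted p = 0.485), or 1.58-fold, and it was 0.35 (SE 0.11) without series 1.

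With blebbistatin against pulsed cultures Abcc9 1374171_at had a change of 0.12 (SE 0.19, adjusted p = 0.838), with differences of 0.26, 0.37 and 0.08 in series 2, 3 and 4. Against nonpulsed cultures the change was 0.78 (SE 0.21, adjusted p = 0.111). The probe set 1398265_at gave 0.71 (SE 0.21; 0.36 without either array of series 1), 0.16 (SE 0.21) and 0.87 (SE 0.24) in the same 3 comparisons. The probe set 1387287_a_at gave 0.61 (SE 0.15, adjusted p = 0.48), -0.09 (SE 0.15) and 0.52 (SE 0.17). All 3 were positive in both comparisons with nonpulsed cultures, and their signs differed for the addition of blebbistatin. Over the 10 arrays they correlated at r = 0.955 to 0.970.

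Of the G protein gated subunits, Kcnj5 (Kir3.4) has 2 probe sets. The brighter, 1368560_at, was higher in every pulsed array than in every nonpulsed one. It read 8.11, 8.17 and 8.17 in pulsed cultures with blebbistatin, 8.65, 8.60, 7.87 and 8.12 in pulsed cultures, and 7.24, 7.68 and 7.66 in nonpulsed cultures. The arrays with blebbistatin lay within the range of the pulsed arrays and spread very little (8.15 ± 0.03, SD, n = 3, against 8.31 ± 0.38, SD, n = 4, in pulsed cultures). The change in pulsed against nonpulsed cultures was 0.81 (SE 0.21, 95% interval 0.32 to 1.31, adjusted p = 0.481), a 1.75-fold difference, with 1.41, 0.91 and 0.21 within series 1, 2 and 3. Without series 1 it was 0.54 (SE 0.19, adjusted p = 1.0). Blebbistatin against pulsed cultures gave -0.15 (SE 0.21, 95% interval -0.64 to 0.35, adjusted p = 0.83), with differences of -0.48, 0.29 and 0.05, so the sign varied between series. Against nonpulsed cultures the change was 0.67 (SE 0.24, adjusted p = 0.166), and every array with blebbistatin was above every nonpulsed array.

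The dimmer Kcnj5 probe set 1387248_at read 6.24, 6.38 and 5.91 in pulsed cultures with blebbistatin, 6.58, 6.36, 5.82 and 5.83 in pulsed cultures, and 5.58, 5.598 and 5.82 in nonpulsed cultures. Its change in pulsed against nonpulsed cultures was 0.59 (SE 0.18, adjusted p = 0.485), but pulsed and nonpulsed arrays overlapped and those of series 3 were equal (difference -0.0040, with 0.99 and 0.77 in series 1 and 2). The Kcnj5 probe sets correlated at r = 0.863.

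Kcnj3 encodes Kir3.1, which needs Kir3.4 to reach the surface of heart cells. Its probe set 1369741_at read 6.87, 7.39 and 7.33 in pulsed cultures with blebbistatin, 6.75, 7.07, 7.17 and 7.19 in pulsed cultures, and 6.56, 6.84 and 6.95 in nonpulsed cultures. The groups overlapped, but the differences of pulsed from nonpulsed arrays were nearly equal in the 3 series, at 0.18, 0.23 and 0.22. The leading probe sets of Kcnj11, Abcc8, Abcc9 and Kcnj5 all differed most in series 1. The change was 0.20 (SE 0.11, 95% interval -0.06 to 0.45, adjusted p = 0.614) in pulsed against nonpulsed cultures, 0.05 (SE 0.11) with blebbistatin against pulsed cultures, and 0.25 (SE 0.12, adjusted p = 0.274) with blebbistatin against nonpulsed cultures.

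The 3 Kcnj3 probe sets did not read alike. 1369740_at followed 1369741_at (r = 0.962) and had changes of 0.16 (SE 0.09), 0.08 (SE 0.09) and 0.24 (SE 0.10, adjusted p = 0.221) in the same 3 comparisons. 1388292_at read 6.57, 6.60 and 7.02 with blebbistatin, 7.21, 6.70, 6.52 and 7.07 in pulsed cultures, and 7.32, 6.69 and 6.72 in nonpulsed cultures. Its highest value was in the nonpulsed array of series 1, where most of the other probe sets had their lowest. It correlated with the other Kcnj3 probe sets at r = -0.474 and -0.428, and its changes were -0.10 (SE 0.09), -0.03 (SE 0.09) and -0.13 (SE 0.10). A single Kcnj3 direction therefore rests on which probe set is read. Atrial and conduction markers, among which Nppa is also made by newborn ventricular cells, averaged 7.996 to 8.48 with blebbistatin, 7.88 to 8.44 in pulsed cultures and 7.96 to 8.36 in nonpulsed cultures.

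The strong rectifiers were dim on these arrays. Kcnj2 (Kir2.1, the main pore of the ventricular resting current in rodents) read 4.66, 4.74 and 4.81 in pulsed cultures with blebbistatin, 5.004, 4.49, 4.54 and 4.90 in pulsed cultures, and 4.52, 4.31 and 4.48 in nonpulsed cultures. All arrays with blebbistatin were above all nonpulsed arrays, by a little, and pulsed arrays overlapped both groups. The change was 0.27 (SE 0.11, 95% interval 0.014 to 0.52, adjusted p = 0.576) in pulsed against nonpulsed cultures, 0.06 (SE 0.11) with blebbistatin against pulsed cultures, and 0.33 (SE 0.12, adjusted p = 0.216) with blebbistatin against nonpulsed cultures. Kcnj12 (Kir2.2) read 4.98, 4.62 and 5.46 with blebbistatin, 5.35, 5.01, 4.90 and 5.13 in pulsed cultures, and 4.67, 5.16 and 4.66 in nonpulsed cultures. Its groups overlapped in every comparison, and the pulsed minus nonpulsed difference was 0.68, -0.15 and 0.23 in series 1, 2 and 3. Many dim probe sets share the lowest level of an array, and 0 of the readings of these 15 probe sets lay there. A reading above that level does not by itself show that a transcript was present, and detection was not tested. Ins1, for example, lay at the lowest level on 0 arrays, with a mean of 7.06.

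**Figure D2:**
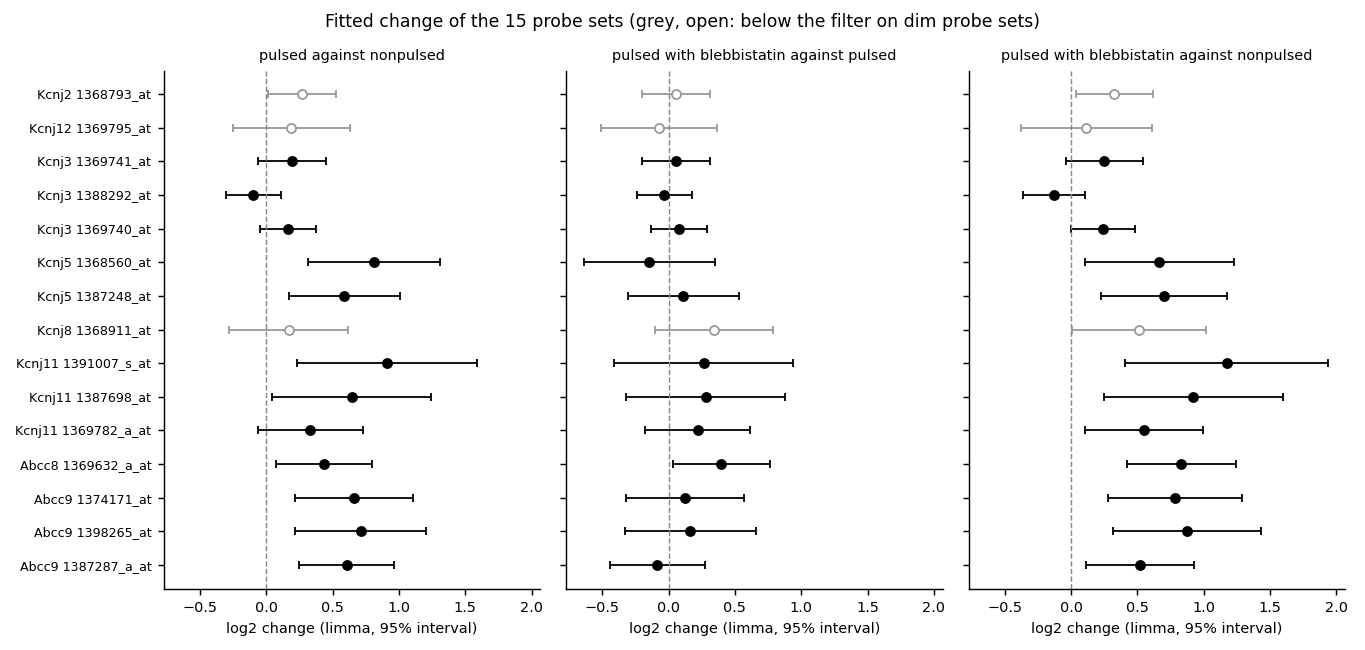
Fitted log2 change (x axis, limma with culture series as a block, bars 95% intervals) of each of the 15 probe sets in the 3 comparisons. Open grey circles are the probe sets of Kcnj2, Kcnj12 and Kcnj8, which lay below the filter. Kcnj11, Abcc8, Abcc9 and Kcnj5 lie to the right of 0 in both comparisons with nonpulsed cultures, and most intervals cross 0 for blebbistatin against pulsed cultures.

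The size of the pulsed against nonpulsed difference depended on the culture series. The pulsed array was higher in each of the 3 series for 10 of the 12 probe sets tested (24.1% of all) and for 11 of the 15. Series 1 also held the most probe sets that differed over 2-fold (1066 of all tested, with 137 in series 2 and 49 in series 3), and the ventricular cardiomyocyte markers differed most there (0.78). When the values were taken relative to the mean of those markers on each array, the pulsed against nonpulsed change was 0.60 (SE 0.21) for Kcnj11, 0.50 (SE 0.18) for Kcnj5, 0.35 (SE 0.18) for Abcc9, 0.12 (SE 0.17) for Abcc8 and -0.11 (SE 0.20) for Kcnj3. The markers averaged 12.93 in pulsed cultures with blebbistatin, 12.90 in pulsed cultures and 12.59 in nonpulsed cultures. Taking them off therefore lowers the change of every probe set from nonpulsed cultures alike, and with it the share of all that is higher. On that scale 2 of the 12 were higher at an unadjusted p below 0.05, where 0.541% of all probe sets tested were higher. Without series 1 it was 5 of the 12, where 3.43% of all were higher.

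**Figure D3:**
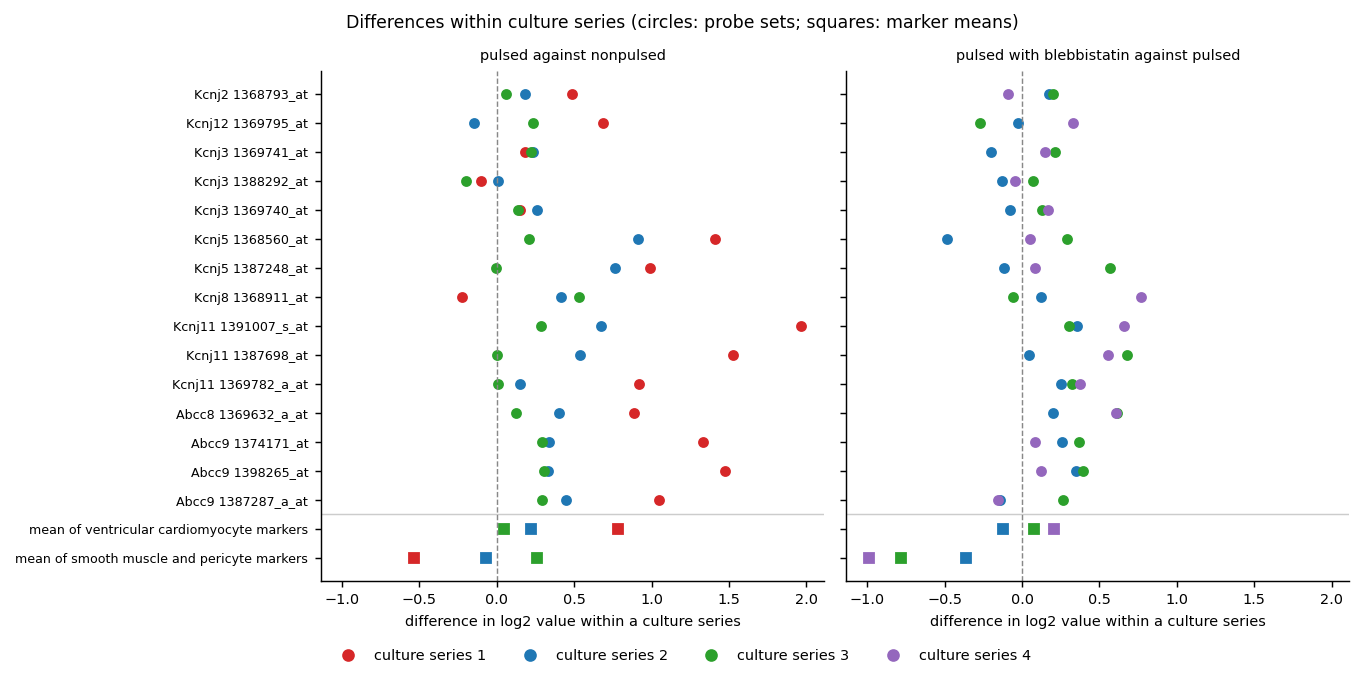
Difference in log2 value between 2 arrays of 1 culture series (x axis) for each probe set (circles) and for the mean of ventricular cardiomyocyte and of smooth muscle and pericyte markers (squares), coloured by series. In the left panel series 1 lies farthest right for most probe sets and for the cardiomyocyte markers (0.78). In the right panel the smooth muscle and pericyte markers are lower with blebbistatin in all 3 series, and the channel genes scatter around or above 0.

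The addition of blebbistatin to pulsing gave small differences. All 3 shared series had a higher value with blebbistatin for 6 of the 12 probe sets tested (23.5% of all), and these were the 3 of Kcnj11, that of Abcc8 and 2 of Abcc9. Series 1 holds no array with blebbistatin but enters the fit through its pulsed and nonpulsed arrays. Without it the changes with blebbistatin against pulsed cultures were 0.44 (SE 0.13, adjusted p = 0.203) for Kcnj11 1391007_s_at and 0.24 (SE 0.10, adjusted p = 0.297) for Abcc9 1374171_at. The count with an unadjusted p below 0.05 was then 6 of 12, where 9.42% of all probe sets tested were higher. Relative to the cardiomyocyte markers the changes were 0.29 (SE 0.21) for Kcnj11, 0.42 (SE 0.17) for Abcc8 and 0.15 (SE 0.18) for Abcc9, and 1 of the 12 was higher at an unadjusted p below 0.05 (2.83% of all).

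Pulsed cultures with blebbistatin and nonpulsed cultures differed most for most of the 12 tested probe sets. Kcnj5 1368560_at and Abcc9 1387287_a_at were exceptions. Their changes were 0.81 and 0.61 in pulsed against nonpulsed cultures, and 0.67 and 0.52 with blebbistatin against nonpulsed cultures. Every array with blebbistatin lay above every nonpulsed array for 8 of the 12 tested probe sets, where 17.6% of all did, and for 9 of all 15. Those 8 were the 3 of Kcnj11, the 2 of Kcnj5, that of Abcc8 and 2 of Abcc9, and the ninth was that of Kcnj2. Both groups are present in series 2 and 3 alone, where 11 of the 12 were higher in each (38.7% of all). There the differences were 1.03 and 0.59 for Kcnj11 1391007_s_at, 0.60 and 0.73 for Abcc8, 0.59 and 0.66 for Abcc9 1374171_at, and 0.43 and 0.50 for Kcnj5 1368560_at. Relative to the cardiomyocyte markers the fitted changes were 0.89 (SE 0.23) for Kcnj11, 0.54 (SE 0.19) for Abcc8, 0.50 (SE 0.21) for Abcc9 and 0.38 (SE 0.21) for Kcnj5, and 5 of the 12 were higher at an unadjusted p below 0.05 (2.19% of all). Without series 1 it was 9 of the 12 (12.7% of all).

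**Figure D4:**
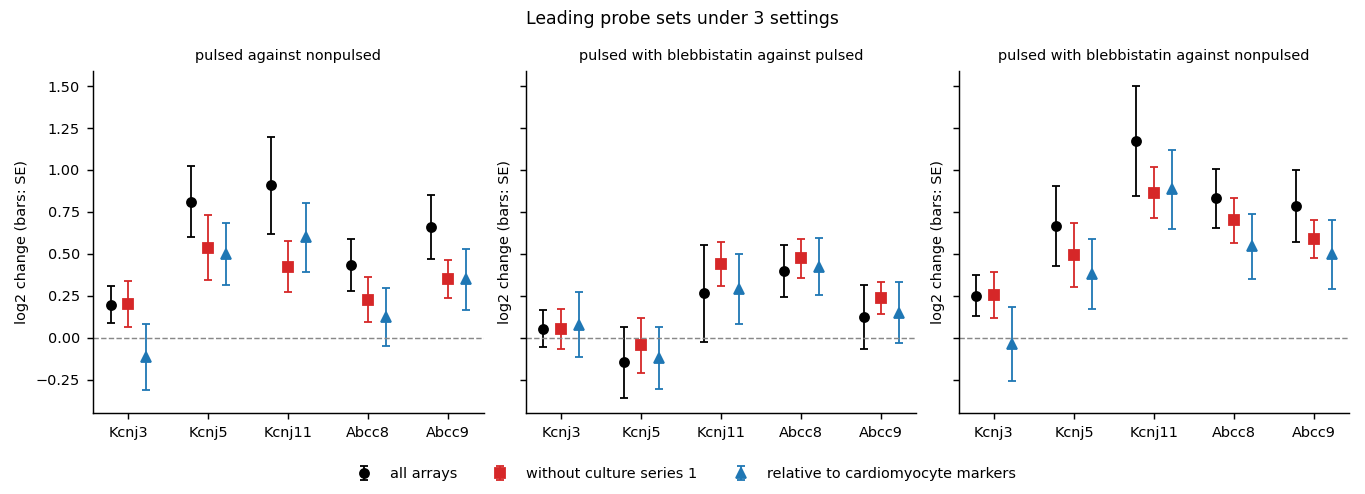
Log2 change (y axis, bars SE) of the leading probe set of the 5 genes that passed the filter, over all arrays (black), without culture series 1 (red) and relative to the cardiomyocyte markers of each array (blue). In pulsed against nonpulsed cultures Kcnj11 is 0.42 without series 1 and Kcnj3 is -0.11 relative to the markers, and with blebbistatin against pulsed cultures Abcc8 is 0.40, 0.47 and 0.42 in the 3 settings.

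Genes that work with these channels showed no adjusted call in any of 5 lists and 3 comparisons. Among other inward rectifiers and relatives of the sulfonylurea receptors, 8 of 12 genes were tested and the median change was 0.18 in pulsed against nonpulsed cultures, 0.14 with blebbistatin against pulsed cultures and 0.24 with blebbistatin against nonpulsed cultures. The medians over all probe sets were 0.04, 0.02 and 0.07. At an unadjusted p below 0.05, 1, 2 and 3 of the 8 were higher and 0 lower. Of all probe sets tested, 7.71%, 6.09% and 15.5% were higher and 1.36%, 5.51% and 6.89% lower in the 3 comparisons. These shares stand beside the counts of all 5 lists. Kcnj9, another G protein gated subunit, had a change of 0.36 (SE 0.11, adjusted p = 0.485) in pulsed against nonpulsed cultures and 0.43 (SE 0.13, adjusted p = 0.125) with blebbistatin against nonpulsed cultures. Abcc4, an exporter of cyclic nucleotides, had 0.32 (SE 0.14, adjusted p = 0.551), 0.52 (SE 0.14, adjusted p = 0.29) and 0.84 (SE 0.15, adjusted p = 0.0642) in the 3 comparisons. Kcnj16, an inward rectifier of epithelia, had -0.38 (SE 0.21) with blebbistatin against pulsed cultures.

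The list of receptors, G protein subunits and RGS proteins that act on the Kcnj3 and Kcnj5 channels had 20 of 21 genes tested, with medians of -0.02, -0.11 and -0.15. At an unadjusted p below 0.05, 2 were higher and 0 lower in pulsed against nonpulsed cultures, 0 higher and 1 lower with blebbistatin against pulsed cultures, and 2 higher and 3 lower with blebbistatin against nonpulsed cultures. Rgs6, which speeds the closing of these channels in mouse heart, had changes of 0.58 (SE 0.22, adjusted p = 0.518) in pulsed against nonpulsed cultures and 1.08 (SE 0.25, adjusted p = 0.0885) with blebbistatin against nonpulsed cultures. Adora1, the A1 adenosine receptor, had 0.49 (SE 0.21, adjusted p = 0.541) in pulsed against nonpulsed cultures. Rgs4 and Rgs2, other regulators of G protein signalling, had -0.97 (SE 0.21, adjusted p = 0.229) and -0.58 (SE 0.36, adjusted p = 0.582) with blebbistatin against pulsed cultures. Rgs2 had -0.90 (SE 0.41, adjusted p = 0.247) with blebbistatin against nonpulsed cultures. Rgs5 stands both in this list and among the smooth muscle and pericyte markers.

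Of the anchoring, trafficking and phosphoinositide genes 16 of 17 were tested, and the medians were 0.0028, 0.02 and 0.02. Akap5, an anchor of protein kinase A, had a change of -1.19 (SE 0.19, adjusted p = 0.11) with blebbistatin against pulsed cultures and -1.30 (SE 0.21, adjusted p = 0.0581) against nonpulsed cultures. Ank2, the ankyrin that anchors Kir6.2 in mouse heart, had 0.26 (SE 0.12, adjusted p = 0.563), 0.41 (SE 0.12, adjusted p = 0.316) and 0.67 (SE 0.14, adjusted p = 0.0763) in the 3 comparisons. Dlg1, a scaffold of Kir2 channels, had -0.16 (SE 0.11) in pulsed against nonpulsed cultures and 0.30 (SE 0.11, adjusted p = 0.378) with blebbistatin against pulsed cultures. At an unadjusted p below 0.05 the list had 0 higher and 0 lower, 2 higher and 1 lower, and 1 higher and 1 lower.

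Polyamine metabolism, which supplies the molecules that block the pore, had 11 of 11 genes tested and medians of 0.10, 0.04 and 0.12. Amd1, an enzyme of polyamine synthesis, had 0.27 (SE 0.15), 0.34 (SE 0.15) and 0.61 (SE 0.17, adjusted p = 0.116), and was the 1 gene of the list with an unadjusted p below 0.05, in the last comparison. Sat1, which starts polyamine breakdown, had -0.35 (SE 0.17) in pulsed against nonpulsed cultures and -0.27 (SE 0.19) with blebbistatin against nonpulsed cultures. Sms, spermine synthase, had 0.08 (SE 0.12) with blebbistatin against pulsed cultures. Of the enzymes that couple nucleotide levels to KATP channels, 9 of 13 were tested, with medians of 0.30, 0.06 and 0.35. At an unadjusted p below 0.05, 2, 0 and 4 were higher and 0 lower. Ckmt2, the mitochondrial creatine kinase of muscle, had 0.93 (SE 0.45, adjusted p = 0.576), 0.52 (SE 0.45) and 1.45 (SE 0.51, adjusted p = 0.161). Ckm, the cytosolic muscle form, had 0.78 (SE 0.26, adjusted p = 0.489), 0.26 (SE 0.26) and 1.04 (SE 0.29, adjusted p = 0.114).

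The patterns of the genes over the 10 arrays were compared with those of all tested genes by Pearson's r, as a description, since the arrays share treatments and culture series. Closest to Kcnj11 were Idh2, a mitochondrial isocitrate dehydrogenase (r = 0.990), Lrrfip2 (0.989) and Popdc2, a membrane protein of striated muscle (0.985). Closest to Abcc8 were the retinoid receptor Rxrg (0.989), Adss1 (0.985) and Fbxo6 (0.984). Abcc9 was nearest to Riox2 (0.978), Pdk2, a pyruvate dehydrogenase kinase (0.976), and Map4k4 (0.974). Kcnj5 was nearest to Dpf3 (0.970), the potassium channel gene Kcnh2 (0.958) and Rbpms (0.943), and Kcnj3 to Slc25a23 (0.946), Surf1 (0.943) and Bckdk (0.941). Among the channel genes themselves, Abcc8 correlated with Kcnj11 1391007_s_at at r = 0.922, with Kcnj11 1387698_at at 0.948 and with Abcc9 1374171_at at 0.911. Of the 15 genes named as closest, 2 were among the closest by Spearman's rho and 1 was when the mean of each culture series was taken off first.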

How the data were processed

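RNA was measured on 10 Affymetrix rat arrays, each of RNA pooled from duplicate experiments per the series design. Per the submitters' processing notes the authors used PLIER in Affymetrix Expression Console 1.1, and the deposited values are log2 expression values, 1 per probe set and array; the base of the log was taken from the size of the values. No further scaling was applied. The genes and lists were chosen with earlier results of these data known.

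Of 31099 probe sets 57 controls were left out. Symbols come from a platform annotation table, and all 15 probe sets had the same symbol in the rat gene table of assembly GRCr8. Probe sets in the lowest 25% of mean value were left out of the tests. The test was that of limma 3.58.1 under R 4.3.3 (lmFit, eBayes, two-sided, all 10 arrays, culture series as a fixed block, Benjamini-Hochberg over 23281 probe sets, threshold 0.05). A comparison in this fit also uses the arrays of the third group, which is why a fitted change need not equal the mean of the series' own differences. The series design names 3 arrays per treatment, and the labels give 4 pulsed arrays, all used.

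The titles give the culture series, which the design describes as separate isolations. Deviations from group means correlated at 0.353 to 0.633 in all 8 pairs of the same series. They correlated at -0.578 to 0.498 in 25, not all, of the pairs of different series. The genes named were the 8 genes, the 2 members of each list with the largest absolute change per comparison, and the 3 genes most alike in pattern. A comparison of protein sequences was planned and is not reported here. Alternatives covered no block, a random block (statmod 1.5.0), only the groups or series compared, other filters, scalings, priors and probe set rules, leaving out each array, and leaving out series 1. Leaving out series 2, 3 or 4 and scaling to cardiomyocyte markers were chosen after seeing the data. The procedure was tested on simulated data.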

Additional observations from a re-analysis of the deposited data

How the results depend on the processing

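The 15 probe sets were recomputed in each comparison under the named settings, which gave 636 values, and without each array in turn, which gave 450. The sign and the side of the threshold stayed in 610 and 436 of them, the sign turned in 23 and 14, and 3 passed the threshold in addition. All 3 came with culture series as a random block in blebbistatin against nonpulsed cultures. There 3 probe sets passed in place of 0 (Kcnj11 1391007_s_at 1.27, Kcnj11 1387698_at 1.00, Abcc8 0.91). The share of all probe sets that passed the adjusted test in that setting was not computed. With no replicate block 0 passed in each comparison. The counts with an unadjusted p below 0.05 were then 9, 1 and 11 of 12, and shares over all probe sets were not computed. Over all settings the adjusted p ran from 0.264 to 1.0, 0.165 to 1.0 and 0.0243 to 0.998. The causes of these shifts were not tested.

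In pulsed against nonpulsed cultures 8 of 12 had an unadjusted p below 0.05. The count was 5 without culture series 1 (3.43% of all higher) and 4 without series 2. Relative to the cardiomyocyte markers it was 2 (0.541% of all higher). With 1 probe set per gene or the mean of its probe sets, where fewer features are tested, it was 4 of the 5 genes. Leaving out 1 array gave 5 to 9 of 12. With blebbistatin against pulsed cultures the count of 1 of 12 was 5 with only these arrays. It was 6 with only the shared series or without series 1, which leave the same arrays (9.42% of all higher). It was 0 without series 2, 3 or 4, and 0 to 6 leaving out 1 array. Against nonpulsed cultures the count of 10 of 12 was 5 relative to the markers (2.19% of all higher) and 4 to 10 leaving out 1 array. With 1 probe set per gene or their mean it was 4 of the 5 genes. Shares over all probe sets were not computed for the other settings here.

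Signs turned for small changes. In pulsed against nonpulsed cultures, relative to the markers, the values were -0.042 (Kcnj2), -0.12 (Kcnj12), -0.11 and -0.15 (Kcnj3 1369741_at and 1369740_at) and -0.14 (Kcnj8), and Kcnj12 had -0.038 without series 1. With blebbistatin against pulsed cultures Kcnj12 had 0.0094 with only these arrays, only the shared series or without series 1, and 0.027 without series 3. Kcnj3 1369741_at had -0.032 and Kcnj5 1387248_at -0.055 without series 3, and Kcnj3 1388292_at 0.0041 and Kcnj5 1368560_at 0.021 without series 2. Abcc9 1387287_a_at had 0.093 with no replicate block and 0.0018 with a random block. Against nonpulsed cultures Kcnj12 had -0.11 with only these arrays or shared series, -0.028 without series 1, -0.00098 without series 4 and -0.17 relative to the markers, where Kcnj3 1369741_at had -0.036 and 1369740_at -0.046. Leaving out 1 array, pulsed against nonpulsed ran from -0.038 to 0.36 for Kcnj12. With blebbistatin against pulsed cultures it ran from -0.013 to 0.13 for Kcnj2, -0.26 to 0.024 for Kcnj12, -0.037 to 0.18 and -0.075 to 0.0066 for Kcnj3 1369741_at and 1388292_at, and -0.35 to 0.011 and -0.10 to 0.19 for Kcnj5 1368560_at and 1387248_at. Against nonpulsed cultures it ran from -0.028 to 0.32 for Kcnj12.

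The probe sets of Kcnj2, Kcnj12 and Kcnj8 lay close to the dim end of the arrays, so their differences can be understated. Settings without series 2, 3 or 4 and those relative to the markers were chosen after seeing the data.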
